A study of Ovis aries and Capra hircus and Bos taurus with 26 samples.

Results

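The peaks described here lie on cattle chromosome 18 and on its homologues, sheep chromosome 14 and goat chromosome 18. Every peak of either mark on these chromosomes was taken by position alone, whatever its strength. They numbered 27056 of the 616400 peaks in the 17 peak lists (4.39%), with 14319 of 340328 H3K27ac peaks and 12737 of 276072 H3K4me3 peaks. The assay was ChIP-seq, the sequencing of DNA pulled down with an antibody to a histone mark, on the frozen liver of 9 healthy adult animals without treatment. These were 3 Holstein cattle aged 3 to 4 years, 3 Texel sheep and 3 Yunnan black goats, both aged 2 to 3 years. H3K27ac was profiled in cattle B and C and in animals A, B and C of the other species, giving 8 libraries. H3K4me3 was profiled in animals A, B and C of all species, giving 9 libraries. A letter stands for the same liver in both marks. Whole liver was used, so a mark carried by fewer cells and a weaker mark in each cell cannot be told apart, and the tissue label was not checked against liver genes because peak lists hold no expression.

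H3K27ac, the acetylation of lysine 27 of histone H3, sits on active promoters and enhancers. H3K4me3, the trimethylation of lysine 4, sits on promoters around transcription start sites. A stretch with H3K27ac and without H3K4me3 is therefore the usual sign of an active enhancer away from a promoter. The chromosome is known as one of the gene-rich ones of ruminants, and it joins sequence that lies on a pair of chromosomes in humans. It carries large clusters of zinc finger genes, which encode transcription factors that bind DNA, many of them repressors of transposable elements. It also carries genes that the liver is known to use, such as APOE (a carrier of cholesterol in lipoproteins), HAMP (hepcidin, the hormone that limits iron uptake) and CEBPA (a transcription factor of hepatocytes).

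The lists themselves state no read number. The methods describe subsampling every library of these species to 1 fixed number of reads, which could not be checked in the lists, so precision here rests on the spread between animals. The 17 lists held 24809 to 50842 peaks each, and 1242 to 2099 of them lay on the chromosome. Measured from the first base to the end of the last peak, the chromosome spanned 65.8 Mb in cattle (ARS-UCD1.2), 71.1 Mb in sheep (Oar_rambouillet_v1.0) and 67.3 Mb in goats (ARS1). It ranked 20 of 29, 16 of 26 and 20 of 29 autosomes by span, between 2.65% and 2.73% of the autosomal total.

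Both marks were crowded on the chromosome. H3K27ac peaks were 1.65 times as dense there as on the other autosomes of the same list, and H3K4me3 peaks, the promoter mark, 2.04 times. For H3K27ac the chromosome had 26.2 and 28.3 peaks per Mb in cattle B and C, against 15.1 and 16.8 on the other autosomes. Sheep A, B and C had 23.2, 21.6 and 23.8 per Mb, against 14.2, 13.2 and 14.8. Goats A, B and C had 26.9, 31.2 and 28.9 per Mb, against 16.1, 19.5 and 17.4. In each species the H3K27ac densities of the chromosome and of the other autosomes did not overlap. For H3K4me3 the chromosome had 20.8, 18.9 and 20.1 peaks per Mb in cattle A, B and C, against 10.3, 9.24 and 9.94. Sheep had 20.7, 21.3 and 20.8 per Mb, against 9.88, 10.8 and 10.6. Goats had 19.5, 21.8 and 23.0 per Mb, against 9.25, 10.6 and 10.8. The H3K4me3 densities of the chromosome were also all above those of the other autosomes.

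The log2 ratio of density was 0.72 ± 0.04 for H3K27ac (SD, n = 8, higher in 8 of 8 animals, p = 0.00781, adjusted p = 0.0127, two-sided exact sign-flip test over animals). It was 1.03 ± 0.04 for H3K4me3 (SD, n = 9, higher in 9 of 9, p = 0.00391, adjusted p = 0.0127, the same exact test). These are the smallest p that 8 and 9 animals allow. The test treats animals as replicates and asks whether a difference repeats between them, and p is adjusted by the Benjamini-Hochberg method over 13 such comparisons. A chromosome above the others in every library is common in itself. Of the 84 autosomes of the 3 species, 52.4% were denser than the rest in every H3K27ac library of their species and 48.8% in every H3K4me3 library. The chromosome ranked 3 among the autosomes in all 8 H3K27ac libraries and 2 or 3 in all 9 H3K4me3 libraries. Peaks lay close together, with a median gap between neighbouring H3K4me3 peaks of 15.7 to 18.01 kb on the chromosome against 26.7 to 32.1 kb elsewhere. For H3K27ac the median gaps were 10.1 to 13.9 kb against 12.0 to 17.4 kb.

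**Figure D1:**
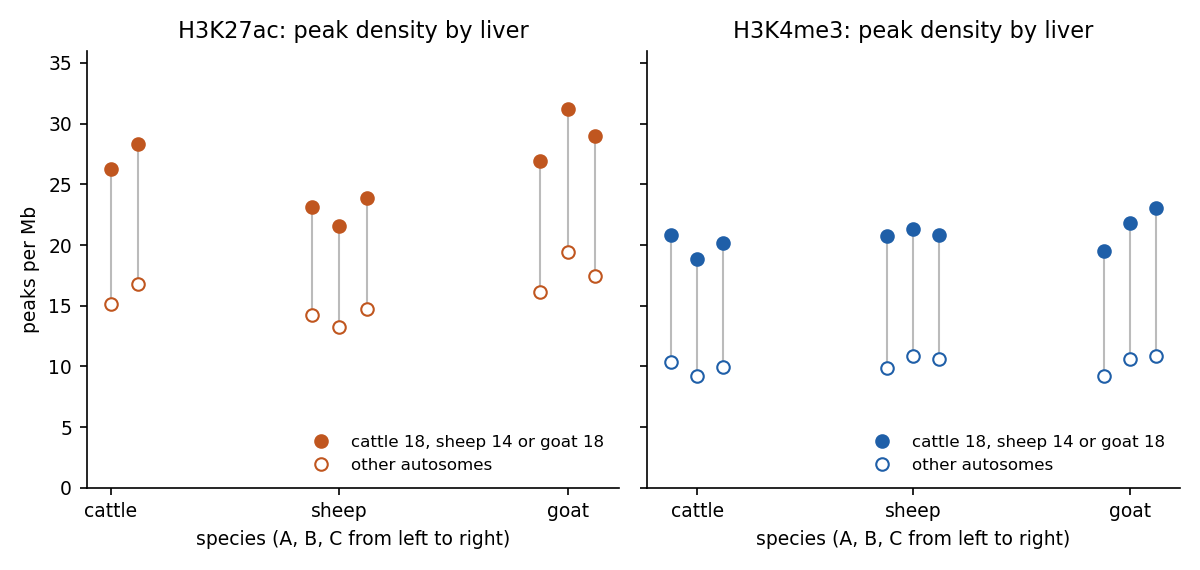
Peak density in peaks per Mb (vertical axis) by species, with 1 pair of points for each liver, for H3K27ac on the left and H3K4me3 on the right. Filled points are cattle 18, sheep 14 or goat 18, open points the other autosomes of the same list, and cattle have no H3K27ac list for animal A. Filled points lie between 21.6 and 31.2 for H3K27ac and between 18.9 and 23.0 for H3K4me3, all above the open points.

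The excess was larger for the promoter mark. On the chromosome there were 1.39 and 1.40 H3K27ac peaks for each H3K4me3 peak in cattle B and C, against 1.64 and 1.69 on the other autosomes. Sheep A, B and C had 1.12, 1.01 and 1.14, against 1.44, 1.22 and 1.40. Goats A, B and C had 1.38, 1.43 and 1.26, against 1.74, 1.83 and 1.61. The ratio of marks was lower on the chromosome in 8 of 8 animals, 0.807 times that elsewhere (log2 -0.31 ± 0.05, SD, n = 8, adjusted p = 0.0127, two-sided exact sign-flip test), beside 29.8% of the 84 autosomes that were below the rest in every animal. With the 20000 strongest peaks of each list the log2 difference was smaller, at -0.13 (adjusted p = 0.0113, the same exact test). Compared between marks, H3K27ac still had 1.26 times as many peaks on the chromosome as H3K4me3 when averaged over species (p = 0.00025, two-sided exact permutation of mark labels within species, the smallest p of 4000 arrangements). With peaks at q of 1e-05 the log2 difference of 0.34 was 0.13 (p = 0.0513, the same exact permutation test), and with the 20000 strongest peaks of each list, which hold the list sizes equal, it was -0.02 (p = 0.324, the same exact test).

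Neither mark was spread evenly along the chromosome. The distal 50% of the span, with the higher coordinates, held most peaks of both marks in every library. Cattle B had 1110 H3K27ac peaks in the distal part and 617 in the proximal part, and cattle C had 1163 and 699. Sheep A, B and C had 1091, 996 and 1108 against 556, 536 and 587. Goats A, B and C had 1178, 1303 and 1240 against 632, 796 and 707. The distal count was thus above the proximal count in all 8 lists. For H3K4me3, distal counts were 901 to 996 in cattle, 1034 to 1059 in sheep and 953 to 1117 in goats, against 341 to 373, 419 to 455 and 361 to 433. The distal part had 1.80 times the H3K27ac peaks of the proximal part (log2 0.85 ± 0.09, SD, n = 8) and 2.54 times the H3K4me3 peaks (log2 1.34 ± 0.08, SD, n = 9). Both differences held in every animal (adjusted p = 0.00781 for each, two-sided exact sign-flip test over 3 comparisons of the parts). The direction is usual, since the distal part held more peaks in every library on 70.2% of the 84 autosomes for H3K27ac and on 71.4% for H3K4me3.

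The proximal part was denser than the other autosomes too, by a smaller margin. Taken alone, it had 1.18 times their H3K27ac density (log2 0.24 ± 0.07, 8 of 8 animals, adjusted p = 0.0127, exact sign-flip test). Its H3K4me3 density was 1.16 times theirs (log2 0.21 ± 0.05, 9 of 9 animals, adjusted p = 0.0127, exact sign-flip test). The distal part alone had 2.12 and 2.93 times the density of the other autosomes. Both of these splits were chosen once the values were known.

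Cut into 10 equal bins, the chromosome showed a similar profile in the 3 species. Bin 5 held the fewest peaks, with a mean of 3.57 H3K27ac peaks per Mb in cattle, 1.59 in sheep and 9.27 in goats. H3K4me3 stood there at 1.01, 2.02 and 4.06 peaks per Mb. Bin 6, next to it, was well filled, with 32.0, 25.3 and 30.9 H3K27ac peaks per Mb. The densest bins were 8 and 9. Bin 8 had 46.0, 42.9 and 52.6 H3K27ac peaks per Mb in cattle, sheep and goats, and 39.9, 42.4 and 43.0 H3K4me3 peaks per Mb. Bin 9 had 47.6, 35.0 and 46.4 H3K27ac peaks and 42.9, 37.3 and 44.3 H3K4me3 peaks per Mb. The profiles of the 10 bins correlated between species with Pearson's r of 0.96 to 0.97 for H3K27ac and 0.98 to 0.99 for H3K4me3. With a profile reversed end to end, r was -0.27 to -0.07. These are descriptions over 10 bins of homologous sequence, not over independent samples, and equal bins need not hold matching sequence.

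**Figure D2:**
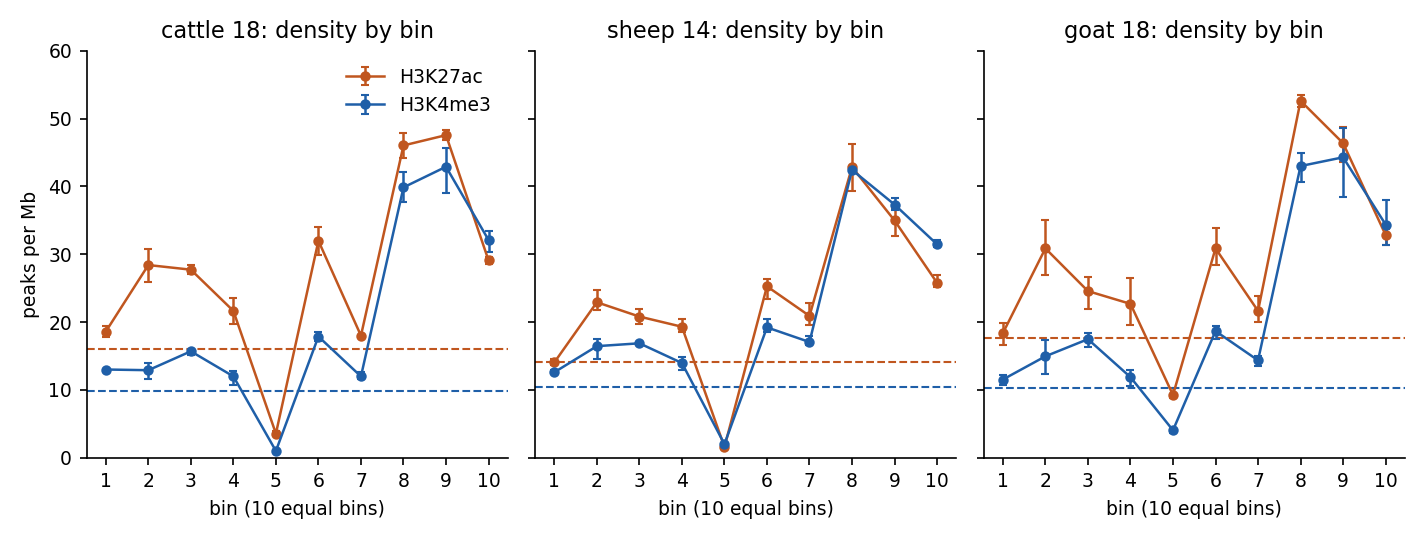
Peak density in peaks per Mb (vertical axis) in 10 equal bins from the first base to the last peak (horizontal axis), for cattle 18, sheep 14 and goat 18. Points are means over the livers of a species, bars run from the lowest to the highest liver, and dashed lines are the mean density of the other autosomes. Density falls to 1.01 to 9.27 in bin 5 and reaches 35.0 to 52.6 in bins 8 and 9.

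In bin 10, at the distal end, H3K4me3 peaks outnumbered H3K27ac peaks in cattle and sheep. Cattle had 200 to 220 H3K4me3 peaks there and 188 to 195 H3K27ac peaks. Sheep had 221 to 228 and 179 to 192, and goats means of 231 and 221. In sheep the H3K4me3 mean was also above the H3K27ac mean in bins 5 (14.3 against 11.3) and 9 (265 against 249). How often end bins of the other autosomes show this was not measured. In bin 2, near the other end, H3K27ac was the more frequent mark, as in most bins. Means there were 187 against 85 peaks in cattle, 163 against 117 in sheep and 208 against 101 in goats.

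At a scale of 1 Mb the peaks were concentrated further. The 10 densest windows of each chromosome held 36.2% to 38.0% of its H3K4me3 peaks and 32.8% to 33.6% of its H3K27ac peaks. On cattle 18 the densest windows for H3K27ac were 53000001 to 54000000 (71 and 76 peaks in B and C), 55000001 to 56000000 (74 and 71) and 56000001 to 57000000 (60 and 64). For H3K4me3 they were 55000001 to 56000000 (83, 63 and 77 in A, B and C), 56000001 to 57000000 (56, 51 and 56) and 49000001 to 50000000 (57, 48 and 53). The window from 55000001 thus stood among the densest for both marks, and its lowest library had 63 peaks.

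On sheep 14 the same windows led for both marks. They were 59000001 to 60000000 with 76, 78 and 76 H3K27ac peaks in A, B and C and 69, 69 and 63 H3K4me3 peaks, and 56000001 to 57000000 with 71, 69 and 74 and 79, 73 and 74. The third H3K27ac window was 51000001 to 52000000 (56, 51 and 62), and the third H3K4me3 window was 58000001 to 59000000 (64, 61 and 60). On goat 18 the leading windows were 54000001 to 55000000 (69, 80 and 74 H3K27ac peaks and 58, 73 and 74 H3K4me3 peaks) and 56000001 to 57000000 (70, 75 and 75 and 67, 78 and 78). The third H3K27ac window of goats lay far from these, from 36000001 to 37000000 (69, 73 and 73), and the third for H3K4me3 from 49000001 to 50000000 (56, 60 and 59). The median window had 20.5 to 25.5 H3K27ac peaks and 15.2 to 16.7 H3K4me3 peaks. Window counts correlated between libraries of a species and mark with a mean r of 0.98 to 0.99, over 66 to 72 windows that share the same gaps, so the dense and empty stretches were in the same places in each animal.

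The empty stretch was a run of long gaps, most clearly in cattle and sheep. The longest stretch free of both marks in every library was 1716 kb on cattle 18 (30744668 to 32460922), 1938 kb on sheep 14 (32685355 to 34622853) and 2349 kb on goat 18 (31503899 to 33853263). On cattle 18 the next longest were 1712 and 1657 kb and lay just before it, from 27012224 to 30381240. On sheep 14 they were 1848 and 1675 kb, from 29063976 to 32685069. On goat 18 the second, of 1700 kb, lay before the longest (28754816 to 30454839), but the third, of 1276 kb, lay far from it (4352872 to 5628608). Against the other autosomes, the longest gap ranked 22 of 29 autosomes in cattle, 19 of 26 in sheep and 12 of 29 in goats, and its median over the other autosomes was 2229, 2137 and 1955 kb.

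A smaller share of H3K27ac peaks lacked H3K4me3 on the chromosome than elsewhere. In cattle B and C, 43.6% and 46.1% of the H3K27ac peaks overlapped no H3K4me3 peak of the same liver, against 53.6% and 56.0% on the other autosomes. In sheep A, B and C the shares were 33.1%, 28.1% and 33.6%, against 48.1%, 41.2% and 45.9%. In goats A, B and C they were 37.5%, 37.6% and 36.4%, against 50.5%, 51.8% and 49.0%. Within each species the highest share on the chromosome lay under the lowest elsewhere. The difference was -12.5 ± 1.81 percentage points (SD, n = 8, lower in 8 of 8 animals, p = 0.00781, adjusted p = 0.0127, two-sided exact sign-flip test). Of the 84 autosomes, 29.8% were below the rest in every animal of their species. From the top, this chromosome ranked 28 or 29 of 29 in cattle and goats and 25 or 26 of 26 in sheep.

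The low share was found mainly in the distal part. There 35.9% and 39.1% of the H3K27ac peaks of cattle B and C lacked H3K4me3, against 57.4% and 57.7% in the proximal part. Sheep A, B and C had 26.7%, 22.0% and 27.8%, against 45.7%, 39.4% and 44.5%. Goats A, B and C had 29.7%, 29.5% and 27.8%, against 52.1%, 50.9% and 51.3%. The distal share minus the proximal share was -20.04 ± 2.48 points (SD, n = 8, lower in 8 of 8 animals, adjusted p = 0.00781, two-sided exact sign-flip test). A lower distal share in every animal was found on 58.3% of the 84 autosomes. With the 20000 strongest peaks of each list it was -12.7 points (adjusted p = 0.00781, exact sign-flip test). Against the other autosomes, the distal part alone differed by -19.7 ± 2.02 points (lower in 8 of 8 animals, adjusted p = 0.0127, exact sign-flip test). The proximal part alone differed from them by 0.36 ± 2.27 points, higher in 4 of 8 animals, with single animals from -2.40 to 3.79 (adjusted p = 0.672, exact sign-flip test). By bins, the mean share was lowest at the distal end, with 18.5% in cattle, 10.1% in sheep and 14.1% in goats in bin 10. The highest mean was 82.8% in bin 5 of cattle, where the lists had 21 and 26 H3K27ac peaks.

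**Figure D3:**
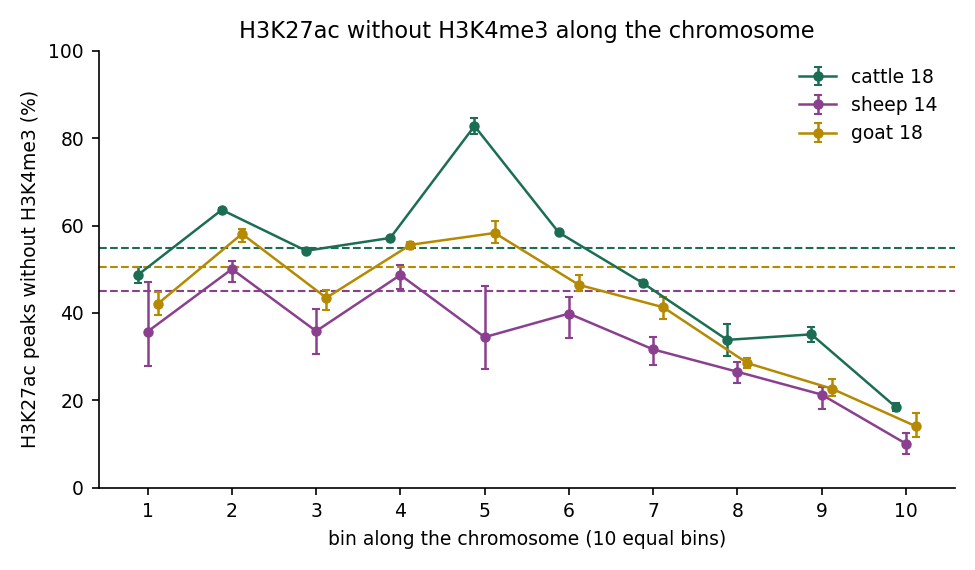
Share of H3K27ac peaks without an H3K4me3 peak of the same liver in percent (vertical axis) in 10 equal bins along the chromosome (horizontal axis). Points are means over the livers of a species, bars run from the lowest to the highest liver, and dashed lines are the means for the other autosomes. The share is lowest in bin 10, at 10.1% to 18.5%, and bin 5 of cattle and sheep rests on 10 to 26 peaks in a liver.

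The mirror measure depended on which peaks were counted. Of the H3K4me3 peaks on the chromosome, 21.3% to 33.8% overlapped no H3K27ac peak of the same liver, against 21.6% to 35.2% elsewhere. The mean difference was -0.95 ± 1.65 points (SD, n = 8, lower in 7 of 8 animals, adjusted p = 0.169, two-sided exact sign-flip test), with 34.5% of the 84 autosomes below the rest in every animal. The cattle were at -3.36 and -2.77, the sheep between -1.39 and -0.68, and goats A, B and C at -0.25, -0.26 and 2.01. With stricter lists the difference was larger and passed, at -2.01 points with peaks at q of 1e-05 and -2.46 points with the 20000 strongest peaks of each list (adjusted p = 0.0113 for each, exact sign-flip test).

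The same picture held for consensus regions, built by merging peaks found in at least 2 animals. In cattle this asks for both H3K27ac lists, but for 2 of 3 lists in every other group, so counts are not alike between species. Promoters are H3K27ac regions covered over 50% of their length or more by an H3K4me3 region, and enhancers are those without H3K4me3. Over its species the paper reports more H3K27ac regions than these lists hold, and mostly enhancers, so the classes here are not its set. Cattle 18 had 875 promoters and 528 enhancers, sheep 14 had 1037 and 404, and goat 18 had 1147 and 597. The enhancer share was 36.7% on cattle 18, 27.4% on sheep 14 and 33.2% on goat 18, against 44.5%, 41.0% and 47.4% on the other autosomes. Each is 1 value for a species, with no test. The exact binomial 95% intervals, which cover counting error alone, were 34.2% to 39.2%, 25.2% to 29.8% and 31.0% to 35.5%.

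Fewer enhancers in proportion did not mean fewer per Mb. The chromosome had 8.02, 5.68 and 8.87 enhancers per Mb in cattle, sheep and goats, against 5.40, 5.15 and 7.59 elsewhere. Promoters stood at 13.3, 14.6 and 17.05 per Mb, against 6.43, 7.12 and 7.99. Windows of 1 Mb with the most enhancers were 34000001 to 35000000 on cattle 18 (26 enhancers, 17 promoters), 12000001 to 13000000 on goat 18 (31 and 20) and, tied on sheep 14, 46000001 to 47000000 (21 and 23) and 57000001 to 58000000 (21 and 24). Apart from the second window of sheep, these lay outside the crowded bins 8 and 9. Over windows, enhancers and promoters correlated with r of 0.41 to 0.53, as a description of neighbouring stretches of 1 chromosome.

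H3K27ac peaks recurred more often between animals here than elsewhere. A peak recurred when 1 peak of another animal of the species covered at least 50% of its length. In cattle B and C, 82.7% and 69.0% of the H3K27ac peaks recurred, against 78.9% and 63.5% on the other autosomes. Sheep A, B and C had 78.3%, 88.7% and 79.4%, against 76.2%, 84.7% and 75.2%. Goats A, B and C had 87.3%, 82.6% and 84.0%, against 85.9%, 77.7% and 80.8%. The spread between animals exceeded the difference, but within an animal the chromosome was always higher, by 3.61 ± 1.38 points (SD, n = 8, 8 of 8 animals, adjusted p = 0.0127, two-sided exact sign-flip test). Of the 84 autosomes, 26.2% were above the rest in every library of their species. Recurrence in 1 animal is read from the others of its species, and cattle B and C have only each other, so the values are not fully independent.

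For H3K4me3 the shares were high everywhere and differed less. Cattle A, B and C had 84.8%, 94.8% and 93.1% on the chromosome, against 84.1%, 95.3% and 92.1%. Sheep had 92.7%, 92.1% and 90.7%, against 93.0%, 89.5% and 87.9%. Goats had 97.6%, 92.6% and 88.3%, against 97.0%, 90.2% and 87.4%. The difference was 1.16 ± 1.21 points (SD, n = 9, higher in 7 of 9 animals, adjusted p = 0.0305, two-sided exact sign-flip test), beside 16.7% of autosomes above the rest in every library. It no longer passed when sheep B, sheep C or any one goat was left out, with adjusted p up to 0.0923 and a mean of 1.01 to 1.55 points (exact sign-flip test). With the 20000 strongest peaks of each list it was 0.02 points (adjusted p = 0.957, exact sign-flip test).

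Recurrence went with the presence of the other mark. On the chromosome, 84.1% to 95.0% of the H3K27ac peaks with H3K4me3 recurred, and 51.4% to 74.8% of those without. Compared with peaks of the same class on the other autosomes, the difference was small. It was 0.32 ± 0.95 points for H3K27ac peaks with H3K4me3 (6 of 8 animals higher, adjusted p = 0.364, exact sign-flip test) and 0.21 ± 3.12 points for those without (3 of 8 animals higher, adjusted p = 0.875, exact sign-flip test). Among peaks without H3K4me3, cattle B and C had 73.7% and 51.4% on the chromosome against 68.5% and 47.8% elsewhere, sheep A, B and C 57.4%, 72.6% and 58.5% against 61.9%, 71.6% and 59.5%, and goats A, B and C 74.8%, 63.5% and 68.9% against 77.4%, 63.6% and 69.0%. Cattle were thus higher on the chromosome and goats were not. The splits by class were chosen once the values were known. Peak strength also moved with recurrence. With the other autosomes weighted to the fold enrichment quartiles of the chromosome, the difference over all H3K27ac peaks was 2.35 points (adjusted p = 0.0113, exact sign-flip test). Among H3K27ac peaks on the chromosome, those in the top quartile of fold enrichment recurred in 94.2% to 99.2% of cases and those in the bottom quartile in 44.0% to 80.9%.

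**Figure D4:**
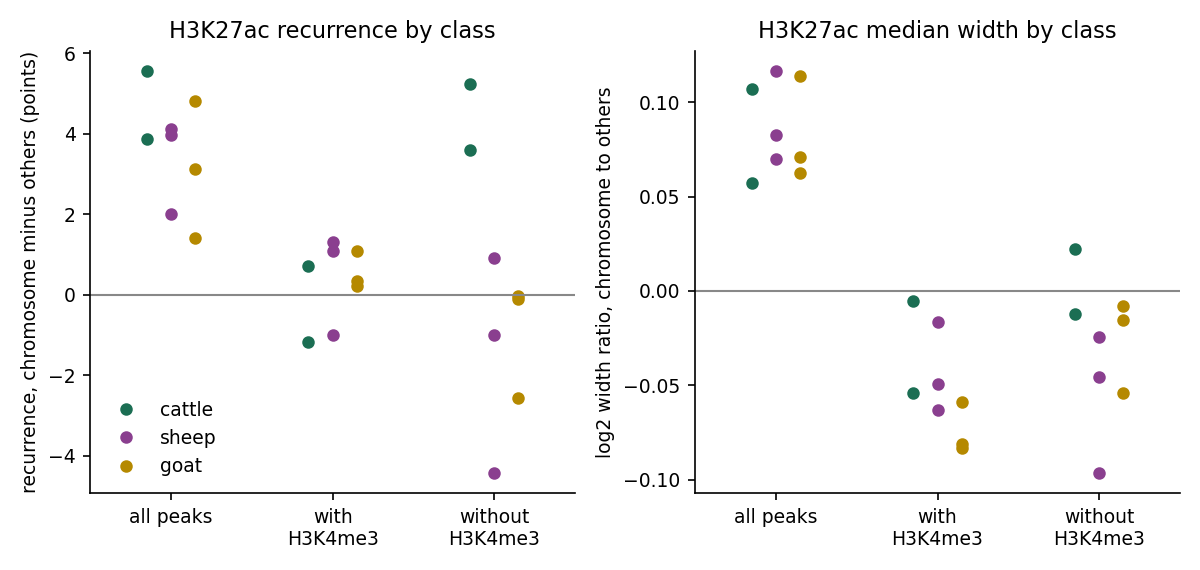
Difference between the chromosome and the other autosomes in H3K27ac recurrence in percentage points (left) and in median H3K27ac peak width as a log2 ratio (right), for all peaks, peaks with H3K4me3 and peaks without. Each point is 1 liver, coloured by species. Over all peaks every point lies above 0 in both panels, while within the classes recurrence scatters around 0 and most widths lie below it.

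H3K27ac peaks were slightly wider here over both classes combined. The median width was 531 and 540 bp in cattle B and C (493 and 519 elsewhere), 528, 484 and 506 bp in sheep A, B and C (487, 457 and 482) and 497 to 521.5 bp in goats (476 to 482). The ratio was 1.06 (log2 0.09 ± 0.02, SD, n = 8, 8 of 8 animals, adjusted p = 0.0127, two-sided exact sign-flip test), with 29.8% of the 84 autosomes above the rest in every library. The log2 ratio was 0.05 as a mean of log2 width and 0.04 with peaks at q of 1e-05, both past the threshold. With the 20000 strongest peaks of each list the direction turned and the test passed, so that H3K27ac peaks were narrower on the chromosome (log2 -0.024, adjusted p = 0.0203, exact sign-flip test). Among peaks with H3K4me3 the order was the reverse. They were 0.965 times as wide as elsewhere (log2 -0.05 ± 0.03, narrower in 8 of 8 animals, adjusted p = 0.0127, exact sign-flip test). Those without H3K4me3 were 0.980 times as wide (log2 -0.03 ± 0.04, narrower in 7 of 8, adjusted p = 0.0600, exact sign-flip test). These splits were chosen once the values were known, and the adjustment does not count such added tests. On the chromosome the class with H3K4me3 had medians of 568.5 to 723.5 bp and the class without 347 to 417.5 bp.

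With all peaks, H3K4me3 width did not differ past the threshold over the 9 animals. Medians on the chromosome were 688.5 to 800.0 bp in cattle, 732 to 794 bp in sheep and 765 to 793 bp in goats, against 710.0 to 774, 694 to 768 and 786 to 805 bp. The ratio was 1.01 (log2 0.01 ± 0.05, wider in 5 of 9 animals, adjusted p = 0.582, two-sided exact sign-flip test, beside 41.7% of autosomes wider in every library). With the 20000 strongest peaks of each list H3K4me3 peaks were narrower on the chromosome (log2 -0.080, adjusted p = 0.0113, exact sign-flip test). On the chromosome H3K27ac peaks had 0.677 times the median width of H3K4me3 peaks (p = 0.00025, two-sided exact permutation of mark labels within species). Very wide peaks were few. Between 1 and 6 H3K27ac peaks and between 3 and 34 H3K4me3 peaks of a list exceeded 2 kb, and the H3K4me3 share, 0.242% to 2.30%, was below that of the other autosomes in all 9 lists, as it was in every library for 29.8% of the 84 autosomes. The H3K27ac share over 2 kb went both ways, with 0.0579% against 0.215% elsewhere in cattle B and 0.364% against 0.273% in sheep A.

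Peak strength, given as the fold enrichment over background in the deposited lists, differed by little. The median of H3K27ac was 3.82 to 4.16 on the chromosome and 3.66 to 4.02 elsewhere, a ratio of 1.04 within a list (8 of 8 animals, adjusted p = 0.0127, two-sided exact sign-flip test, beside 35.7% of autosomes higher in every library). For H3K4me3 it was 6.29 to 7.47 and 6.52 to 7.52, a ratio of 0.977 (lower in 7 of 9 animals, adjusted p = 0.0282, exact sign-flip test, beside 40.5% lower in every library), and leaving out cattle B or C, sheep A or C, or goat A or C took the adjusted p over the threshold, up to 0.0564. The call was also lost with the 20000 strongest peaks of each list (log2 -0.011 against -0.034, adjusted p = 0.0889, exact sign-flip test) and with peaks within 500 bp merged (log2 -0.019, adjusted p = 0.148, exact sign-flip test). The share of H3K27ac peaks with several summits was higher by 1.50 ± 0.64 points (8 of 8 animals, adjusted p = 0.0127, exact sign-flip test, beside 25% of autosomes above the rest in every library), but differed by 0.26 points with peaks at q of 1e-05 (adjusted p = 0.492) and by -0.87 points with the 20000 strongest peaks of each list (adjusted p = 0.0646). That of H3K4me3 differed by -0.99 ± 1.24 points (lower in 6 of 9 animals, adjusted p = 0.0600, exact sign-flip test, beside 40.5% of autosomes below the rest in every library). It passed at -1.53 points with peaks at q of 1e-05 and at -3.51 points with the 20000 strongest peaks of each list (adjusted p = 0.0113 for each, exact sign-flip test).

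Among the gene-rich chromosomes, the homologues of cattle 19 (sheep 11, goat 19) were denser. H3K27ac density on the chromosome was 0.805 times theirs (log2 -0.31 ± 0.08, lower in 8 of 8 animals, adjusted p = 0.0195, two-sided exact sign-flip test) and H3K4me3 density 0.894 times (log2 -0.16 ± 0.06, lower in 9 of 9, adjusted p = 0.0195, the same exact test). The share of H3K27ac peaks without H3K4me3 differed from theirs by -3.56 ± 1.06 points (lower in 8 of 8 animals, adjusted p = 0.0195, exact sign-flip test). Sheep B, for example, had 28.1% here and 32.9% on sheep 11. The homologues of cattle 25 (sheep 24, goat 25) were nearer. H3K27ac density was 0.930 times theirs (8 of 8 animals lower, adjusted p = 0.0195, exact sign-flip test). For H3K4me3 the log2 ratio was 0.001 ± 0.05 (single animals from -0.06 to 0.09, adjusted p = 0.938, exact sign-flip test), and the share without H3K4me3 differed by 0.40 points (single animals from -1.62 to 1.53, adjusted p = 0.399, exact sign-flip test). With the 20000 strongest peaks of each list the H3K4me3 density was lower here than on those homologues (log2 -0.06, adjusted p = 0.0156, exact sign-flip test). H3K27ac recurrence differed from theirs by -0.92 ± 0.73 points (lower in 7 of 8 animals, adjusted p = 0.0469, exact sign-flip test), which leaving out any 1 animal other than cattle A or sheep B took over the threshold, to means of -1.09 to -0.46 points and an adjusted p of up to 0.273. Without cattle B or C, neither cattle list has a recurrence value, as each is the only partner of the other. Fewer animals also raise the smallest p that the test allows. The call was also lost at q of 1e-05 (-0.59 points, adjusted p = 0.42), with the 20000 strongest peaks of each list (-0.75, adjusted p = 0.451) and with merged peaks (-0.83, adjusted p = 0.0625), each by the same exact test. H3K4me3 recurrence differed from theirs by -0.48 ± 1.29 points (lower in 6 of 9 animals, adjusted p = 0.399, exact sign-flip test), and by -1.11 points with the 20000 strongest peaks of each list (adjusted p = 0.0195, exact sign-flip test). Against the cattle 19 homologues, H3K27ac recurrence differed by 0.42 ± 1.19 points (higher in 6 of 8 animals, single animals from -1.51 to 1.98, adjusted p = 0.399, exact sign-flip test). H3K4me3 recurrence differed from that of the cattle 19 homologues by -0.92 ± 1.08 points (lower in 7 of 9 animals, adjusted p = 0.0521, exact sign-flip test), and by -0.75 points with the 20000 strongest peaks of each list (adjusted p = 0.0446, exact sign-flip test). That difference did not pass at q of 1e-05 or with merged peaks. These 10 comparisons were adjusted together.

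A RefSeq gene table of sheep places 1256 of 20201 protein-coding genes of the autosomes on chromosome 14 (6.22%, rank 4 of 26). It names 71 zinc finger genes there of 277 on all autosomes (25.6%), and the next highest chromosome has 26. The table belongs to another assembly (ARS-UI_Ramb_v3.0), so it was used only for gene numbers and their order. Of 16 symbols looked up, 8 were found on 14, in the order FTO, LCAT (esterification of cholesterol in plasma), TAT (breakdown of tyrosine), CEBPA, HAMP, APOE, APOC2 (activator of lipoprotein lipase) and FGF21 (a hormone released by the liver). Before CEBPA lie 401 coding genes, 12 of them named zinc finger genes, and after it 854, with 59.

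Per coding gene, sheep 14 had fewer peaks than the other autosomes, by a margin that for H3K4me3 depended on which genes were counted. H3K27ac libraries A, B and C had 1.31, 1.22 and 1.35 peaks for each coding gene of the chromosome, against 1.94, 1.80 and 2.01 for the other autosomes. H3K4me3 libraries had 1.17, 1.21 and 1.18, against 1.35, 1.48 and 1.44. Sheep 14 ranked 1 or 2 from the lowest of 26 for H3K27ac and 3 from the lowest for H3K4me3 in each animal. Of the coding genes on 14, 29.4% have no symbol of their own (LOC names), against 21.3% elsewhere. Over the 887 genes with a symbol, H3K4me3 stood at 1.66, 1.71 and 1.67 peaks per gene in A, B and C, against 1.71, 1.88 and 1.83, and ranked 11, 5 and 5 from the lowest. For H3K27ac the values were 1.86, 1.73 and 1.91 against 2.46, 2.29 and 2.56, with ranks of 1 or 2. Over the 26 autosomes of sheep, peak number and gene number correlated with Pearson's r of 0.96 for H3K27ac and 0.97 to 0.98 for H3K4me3, a description across chromosomes of unequal size. The gene table was brought in once other values were known, and sequence that moved between the assemblies was not followed.

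The strongest consensus region, taken as the one whose worst rank by −log10 q was best, lay at the very start of the chromosome in cattle and sheep. On cattle 18 it was 66569 to 67026 for H3K27ac (fold enrichment 11.4 to 11.6, ranks 1 and 2) and 33393 to 34383 for H3K4me3 (13.4 to 14.4). On sheep 14 it was 410575 to 411064 for H3K27ac (29.6 to 31.6) and 410491 to 411074 for H3K4me3 (21.1 to 23.7), rank 1 in all 6 libraries. On goat 18 it was 51611478 to 51612528 for H3K27ac (10.7 to 12.6, rank 1 in 3 of 3) and 11553223 to 11554163 for H3K4me3 (15.6 to 18.7, ranks 7, 2 and 1). The sheep region was the same place for both marks, and each of the 6 overlapped a region of the other mark. The first peak of any list began at 6140 on cattle 18, 300092 on sheep 14 and 11617 on goat 18. Neither genes nor repeats at these places are given, since annotation of these builds was not used here, and whether repeated sequence has a part in the high fold enrichment was not tested.

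The widest regions lay elsewhere. For H3K27ac they were 2573 bp on cattle 18 (53103983 to 53106555), 2513 bp on sheep 14 (48413007 to 48415519) and 2729 bp on goat 18 (35549218 to 35551946). For H3K4me3 they were 3179 bp on cattle 18 (39069908 to 39073086), 2792 bp on sheep 14 (10954237 to 10957028) and 2895 bp on goat 18 (67061181 to 67064075). Fold enrichment was 4.32 to 4.87 in the H3K27ac region of sheep, 4.05 to 4.31 in that of goats and 3.52 to 3.90 in that of cattle. In the 3 H3K4me3 regions it was 2.78 to 3.796, below the median of the H3K4me3 peaks. None was among the strongest by −log10 q, with poorest ranks of 348 to 986. The widest H3K4me3 region of cattle overlapped no H3K27ac region, while the other 5 overlapped the other mark.

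The species were compared in how far the chromosome differed from the other autosomes, with 7 exact permutation tests of species labels. After adjustment 0 of 7 passed, and 2 had an unadjusted p under 0.05. For density the mean log2 ratio of H3K27ac was 0.77 ± 0.03, 0.70 ± 0.01 and 0.72 ± 0.03 in cattle, sheep and goats (p = 0.0536, adjusted p = 0.125, exact permutation test). For H3K4me3 it was 1.02 ± 0.01, 1.01 ± 0.05 and 1.07 ± 0.03 (adjusted p = 0.269, exact permutation test). A p over the threshold does not show that the species were alike, and the cattle have 2 animals for H3K27ac.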

How the data were processed

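As the methods describe, reads were trimmed by the authors (Trim Galore 0.4.0), aligned with BWA 0.7.17, removed duplicates with Picard 2.25.0, subsampled reads to 1 fixed number and called narrow peaks for each library with MACS2 2.1.1 at q of 0.01 (versions as in the submitters' processing notes). The 9 inputs have no list here, and whether they served as background is not given in the sources used here. Each deposited list holds positions, a display score, fold enrichment (a ratio to background), −log10 p and −log10 q, and the summit offset (unused). These values of the authors were compared only within a list. The score was not used further.

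Rows sharing an interval were joined, so 840697 rows became 616400 peaks. Depth is not part of a list. Other autosomes exclude X and unplaced sequence, and spans of peaks stand in for chromosome lengths. The replicate letter names the liver, which ties both marks to 1 animal. Deviations of log2 peak number on the chromosome from the group mean correlated between marks with r = 0.51 over 8 animals.

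Sign-flip, F and label permutation tests were exact, adjusted by Benjamini-Hochberg within families, with 0.05 as the threshold. For splits by class or part chosen once the values were known, each p took the place of the planned one in its family. Their adjustment thus does not count the added tests, and no share over the autosomes was computed for them. The tests were run on simulated data and the overlap code was checked against bedtools. Alternatives were a stricter q, the strongest peaks, merged peaks, other overlap, width, span and reference rules, and leaving out each animal. For each species and mark the regions named were the region with the best poorest rank, the widest region, the 3 densest windows, the longest gap and the window with most enhancers. Members, lists and rules were chosen with earlier results of these data known. Gene positions in these builds and sequences were not analysed here. Python 3.11.15, numpy 2.4.6, scipy 1.17.1 and matplotlib 3.10.9 were used.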

Additional observations from a re-analysis of the deposited data

Results flagged for a closer look

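A difference between species was seen in 2 of the 7 species comparisons before adjustment. The median width of H3K4me3 peaks, relative to the other autosomes, was higher on the chromosome in 3 of 3 sheep (mean log2 ratio 0.06 ± 0.03) and lower in 3 of 3 goats (-0.04 ± 0.01), with cattle at 0.01 ± 0.05 (SD, n = 3 each, F = 5.89, p = 0.0464, adjusted p = 0.125, exact permutation test). The share of H3K27ac peaks without H3K4me3 on the chromosome minus that elsewhere was -9.94 ± 0.07 points in the 2 cattle, -13.5 ± 1.39 points in the 3 sheep and -13.3 ± 0.85 points in the 3 goats (SD, F = 8.36, p = 0.0321, adjusted p = 0.125, exact permutation test).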

How the results depend on the processing

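The distal against proximal differences and, against the other autosomes, densities of both marks, the ratio of marks and the share of H3K27ac without H3K4me3 kept direction and side of the threshold under every alternative run, except that the share without H3K4me3 in the proximal part alone was 0.36 points. Over all results, 110 of 150 values under other settings and 285 of 315 without 1 animal did the same. As log2 ratios or points against the other autosomes, a q of 1e-05 gave H3K4me3 width -0.019, several summits 0.26 (H3K27ac) and -1.53 (H3K4me3, now past the threshold), H3K4me3 without H3K27ac -2.01 (now past it), and against the cattle 25 homologues H3K4me3 density -0.016 and H3K27ac recurrence -0.59, with 0.13 for peak number between marks. The 20000 strongest peaks gave widths of -0.024 (H3K27ac) and -0.080 (H3K4me3), both past the threshold as narrower, H3K4me3 fold enrichment -0.011 (no longer past it), several summits -0.87 (H3K27ac) and -3.51 (H3K4me3, now past it), H3K4me3 recurrence 0.016 (no longer past it), H3K4me3 without H3K27ac -2.46 (now past it), peak number between marks -0.022, H3K4me3 recurrence against cattle 19 homologues -0.75 (now past it), and against cattle 25 homologues H3K4me3 density -0.065 (now past it) and recurrence -0.75 (H3K27ac, no longer past it) and -1.11 (H3K4me3, now past it). Merging within 500 bp gave H3K4me3 width -0.018 and fold enrichment -0.019 (no longer past it), and against cattle 25 homologues a share without H3K4me3 of -0.054 and H3K27ac recurrence of -0.83. At q of 1e-05 and with merged peaks, H3K4me3 recurrence against cattle 19 homologues stayed short of the threshold. Mean log2 width of H3K4me3 was -0.0037. Within classes, chosen after seeing the data, recurrence was 0.21 and 0.32 (H3K27ac without and with H3K4me3), 0.93 and 1.18 (H3K4me3 without and with H3K27ac), and H3K27ac width -0.029 and -0.051. Regions found in all animals had enhancer shares of 40.1%, 20.8% and 27.4% in cattle, sheep and goats, each outside its interval given above. On the other autosomes the shares were 47.9%, 32.1% and 39.7%. In cattle the H3K27ac regions stayed at 1440, while the H3K4me3 regions went from 1227 to 1084. The cause of these changes was not tested.

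Without 1 animal, H3K4me3 width ran from -0.00070 to 0.0165 (below 0 without sheep B), fold enrichment from -0.039 to -0.029, several summits from -1.25 (past the threshold without sheep B) to -0.77, recurrence from 1.01 to 1.55, and the share without H3K27ac from -1.37 (past it without goat C) to -0.60. H3K4me3 recurrence against cattle 19 homologues ran from -1.51 to -0.67, passing without any 1 sheep, goat A or goat C. Against cattle 25 homologues, H3K4me3 density ran from -0.010 to 0.0089 and H3K27ac recurrence from -1.09 to -0.46.

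With the replicate block, a paired test over 8 animals, peak number between marks was 0.33 and width -0.56 on the log2 scale (p = 0.00781 each, exact sign-flip test), and neither call changed. Few animals, read numbers that the lists do not state and spans read from peaks limit the precision.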
